A study of Rattus norvegicus with 8 samples.

Results

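The genes described here are the chemokines and their receptors, in heart muscle cells from the ventricles of newborn rats that were given a miR-222 precursor in primary culture. The family was taken by gene symbol from the annotation of the array. It comprised the CXC and CC ligands, Cx3cl1, Xcl1, Pf4 and Ppbp, the matching CXC, CC, CX3C and XC receptors, and the atypical receptors named Ackr. These were 53 of the 14506 genes that had a probe set of their own, 35 ligands and 18 receptors, and each was read by 1 probe set. One group of cells received 0.4 µM of the miR-222 precursor (miR-222, 4 arrays), and the other received the same dose of a scrambled precursor (control, 4 arrays). Both groups were transfected with the lipid reagent Lipofectamine RNAiMAX and were lysed for RNA 48 h later. Replicates are numbered 1 to 4 within each group in the order of deposition, and the numbers pair nothing. The labels give no strain, no number of animals and no separate cultures, so the p-values cover the spread among these arrays alone, and that spread may be technical.

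Chemokines are small secreted or membrane-bound proteins that guide migrating cells along a gradient. They are classed by the spacing of conserved cysteines near the amino end: CC where these are adjacent, CXC where a residue lies between them, CX3C and XC for the remaining forms. They act through receptors that cross the cell membrane and couple to inhibitory G proteins, whereas atypical receptors bind and remove chemokines without that coupling. In the heart, resident muscle, stromal and endothelial cells release chemokines after injury and so draw in neutrophils, monocytes and lymphocytes. Most of the receptors are chiefly genes of white blood cells.

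The RNA given to the cells is shown first because every difference below is a difference between it and the scrambled precursor. These are the rat mature forms in RefSeq (build GRCr8, chromosome X), with the seed, bases 2 to 8, in capitals. The labels do not print the precursor itself.
rno-miR-222-3p: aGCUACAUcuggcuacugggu
rno-miR-221-3p: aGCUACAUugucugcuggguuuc
rno-miR-222-5p: gGCUCAGUagccaguguagau
The 3p forms of miR-222 and miR-221 share the seed GCUACAU, and the 5p form of miR-222 has another, GCUCAGU. Messenger RNA sequences were not used here, so no target sites were sought in the chemokine genes.

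The values are intensities on a linear scale that the authors had already processed, with array medians of 202 to 219. Arrays of a group correlated at 0.989 to 0.993 with each other in the miR-222 group and at 0.990 to 0.993 in the control group. Intensities of different probe sets do not order the genes by transcript level. The mean intensity over the 8 arrays was below 202 for 37 of the 53 family members. The median SE of the log2 fold change was 0.10 in the family against 0.07 over all genes. All 15 cardiomyocyte markers examined were measured, with a median intensity of 10265, and their summed intensity was 135672 to 138573 in miR-222 arrays against 146556 to 149574 in control arrays. In limma's test, described below, 5 of them fell (33.3%, against 13.0% of all genes), 0 rose and 10 did not pass. Those 10 alone summed to 103202 to 104470 in miR-222 arrays and to 105972 to 108283 in control arrays. The number that fell was 3 without miR-222 replicate 1 or 4 or without control replicate 1, 2 or 3, and 10 with a trend in the spread.

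With the miR-222 precursor 3 family members rose, namely the T-cell attractant gene Cxcl11, the membrane-bound chemokine gene Cx3cl1 and the monocyte receptor gene Ccr2. Another 6 fell, namely Cxcl12, Ccl27, Cxcl16, Ccl2, Ackr3 and Ccl20. The rise of Cxcl11 was 2.53-fold, and the other changes were between 1.27-fold and 1.59-fold. The remaining 44 members did not pass the test, which was limma's on log2 intensities with p adjusted over all probe sets and a threshold of 0.05. The 9 members called are 17.0% of the family, whereas 24.7% of all genes passed. Higher genes were 3 of 53 in the family against 11.7% of all genes, and lower genes were 6 of 53 against 13.0% of all genes. The median log2 fold change, miR-222 minus control, was 0.01 in the family and 0.01 over all genes, and the quartiles were -0.11 and 0.12 in both. The groups did not overlap in 9 members, against 33.3% of all genes, and these were the same 9 that passed.

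**Figure D1:**
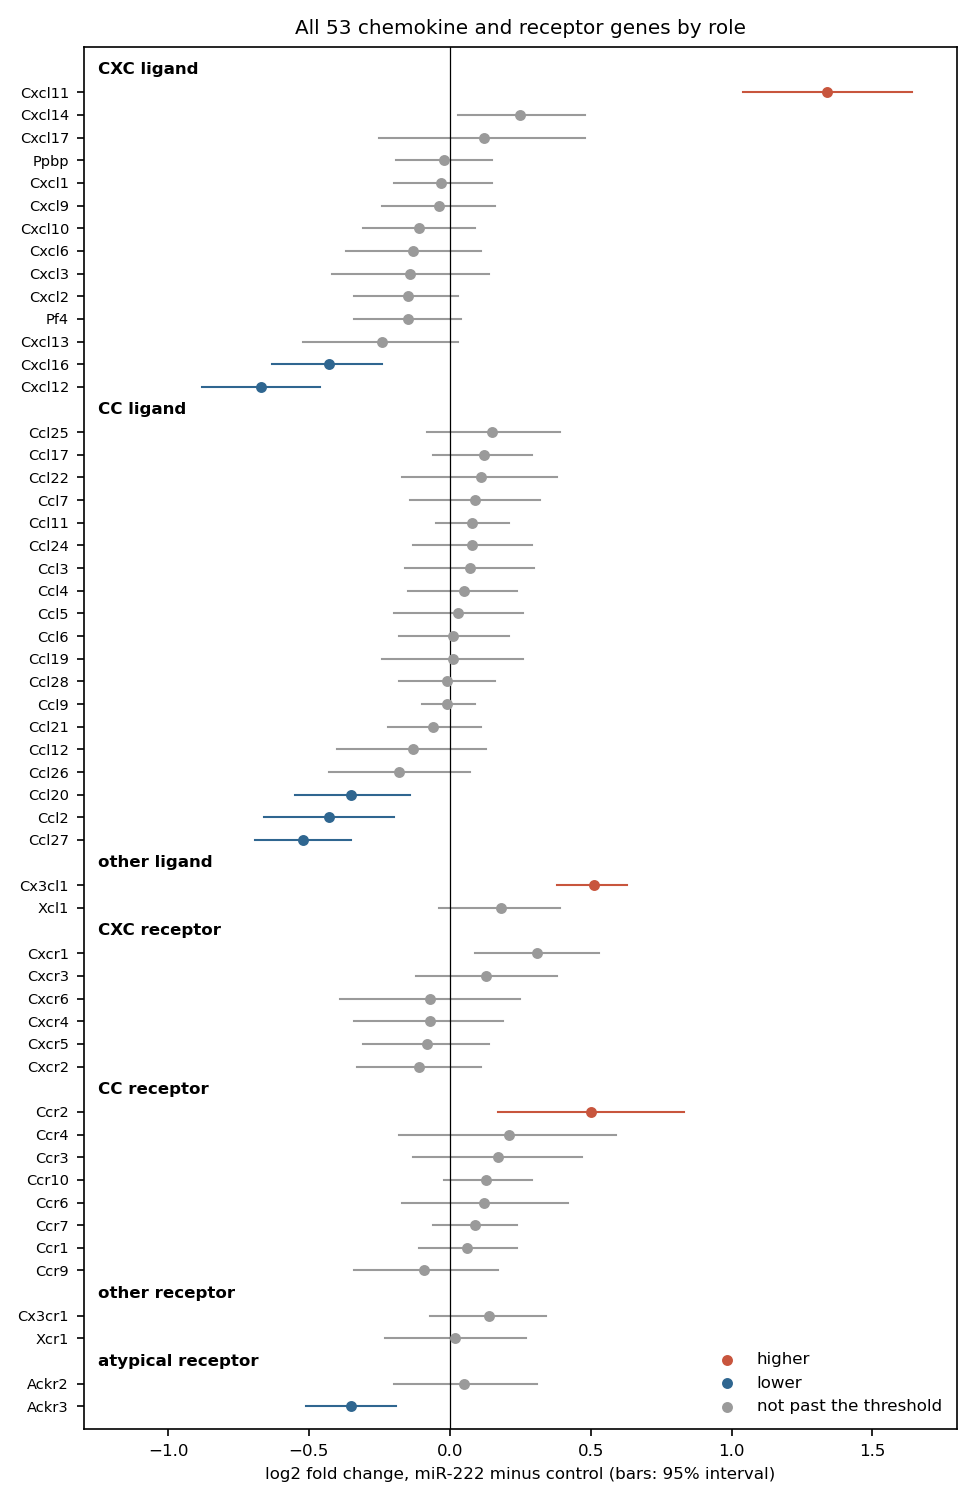
Log2 fold changes (miR-222 minus control, x axis) of the 53 family members with 95% intervals from the limma fit, grouped by role down the page and coloured by the outcome of the test. Cxcl11 stands at 1.34, and the 44 members that did not pass lie between -0.24 and 0.31.

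Among the 14 CXC ligands 1 rose, 2 fell and 11 did not pass. That is 21.4% of the class past the threshold, against 24.7% of all genes. Cxcl11, probe set 10771649, encodes a ligand of the T-cell receptor Cxcr3 that is known as an interferon-induced gene. Its intensities were 1004, 985, 1485 and 1056 in miR-222 replicates 1 to 4, against 406, 481, 433 and 445 in control replicates 1 to 4. The lowest miR-222 array was above the highest control array, and miR-222 replicate 3 stood above the other 3 of its group. On the log2 scale the means were 10.12 ± 0.28 in miR-222 cells and 8.78 ± 0.10 in control cells (SD, n = 4 each), a fold change of 1.34 (SE 0.13, limma adjusted p = 0.000392). Without miR-222 replicate 3 the fold change was 1.20 (limma adjusted p = 0.000154).

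Cxcl10 and Cxcl9 encode the other ligands of Cxcr3. On the chromosome Cxcl10 lies next to Cxcl11, and Cxcl9 next to Cxcl10. Cxcl10 had intensities of 324, 344, 276 and 335 in the miR-222 arrays, against 326, 341, 386 and 325 in the control arrays. The groups overlapped, and the fold change of -0.11 had a 95% interval of -0.31 to 0.09. For Cxcl9 the values were 67.7, 65.5, 63.5 and 61.0 with miR-222, against 58.7, 78.1, 63.8 and 65.2 in control cells. That is a fold change of -0.04, with an interval of -0.24 to 0.16. The receptor gene Cxcr3 measured 0.13 (interval -0.12 to 0.38) and did not pass either.

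Cxcl12, probe set 10858165, encodes a ligand that stromal cells make and that holds and recruits cells bearing Cxcr4. It had intensities of 348, 344, 285 and 347 in miR-222 cells, against 580, 478, 559 and 487 in control cells. The groups did not overlap, and of the 8 arrays miR-222 replicate 3 had the lowest value. The means were 8.36 ± 0.14 and 9.03 ± 0.14 log2 units in miR-222 and control cells (SD, n = 4 each). The fold change was -0.67 (SE 0.09, limma adjusted p = 0.00183), and it was -0.60 without miR-222 replicate 3.

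Ackr3, probe set 10925291, is the atypical receptor that takes up both Cxcl12 and Cxcl11. It fell together with Cxcl12 and opposite to Cxcl11, with intensities of 436, 503, 472 and 426 with miR-222, against 592, 557, 631 and 561 in control arrays. The highest miR-222 array was below the lowest control array. The log2 means were 8.84 ± 0.11 in miR-222 cells and 9.19 ± 0.08 in control cells (SD, n = 4 each), a fold change of -0.35 (SE 0.07, limma adjusted p = 0.00879). The signalling receptor for Cxcl12, Cxcr4, measured 168, 228, 199 and 153 in miR-222 cells, against 191, 201, 196 and 191 in control cells. Its miR-222 values spanned the control values, and the fold change of -0.07 had an interval of -0.34 to 0.19. The other atypical receptor, Ackr2, a scavenger of inflammatory CC chemokines, measured 0.05 (interval -0.20 to 0.31).

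Cxcl16, probe set 10744460, encodes a membrane-bound ligand that can be shed and that binds Cxcr6 on T cells. Its intensities were 471, 528, 407 and 459 in miR-222 cells, against 677, 620, 583 and 633 in control cells, with no overlap. The log2 means were 8.86 ± 0.15 in miR-222 cells and 9.29 ± 0.09 in control cells (SD, n = 4 each). The fold change was -0.43 (SE 0.08, limma adjusted p = 0.00846). Cxcr6 itself gave -0.07 (interval -0.39 to 0.25).

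The neutrophil attractants of the CXC class, which act through Cxcr2, did not pass. Cxcl1, probe set 10775900, had 834, 906, 813 and 818 in miR-222 arrays, against 878, 823, 775 and 972 in control arrays. Its groups overlapped, with log2 means of 9.72 ± 0.07 in miR-222 cells and 9.75 ± 0.14 in control cells (SD, n = 4 each), and the fold change of -0.03 had an interval of -0.20 to 0.15. Cxcl2 measured -0.15, Cxcl3 -0.14, Cxcl6 -0.13 and Ppbp -0.02, and none of these intervals reached beyond -0.42. The platelet chemokine gene Pf4 measured -0.15. Cxcl13, the B-cell attractant, gave -0.24 at very dim intensities of 41.9 to 57.8 with miR-222 and 50.5 to 68.9 in control cells. Cxcl14 gave 0.25 (limma adjusted p = 0.120) and Cxcl17 0.12 (interval -0.25 to 0.48).

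Among the 19 CC ligands 0 rose, 3 fell and 16 did not pass. These 3 are 15.8% of the class, against 24.7% of all genes that passed and 13.0% that fell. By limma the count at an unadjusted p under 0.05 was also 3 of 19, against 5412 of all 14506 genes. Ccl2, probe set 10736697, encodes a major attractant of monocytes. It had 3576, 3747, 2799 and 3735 in miR-222 replicates 1 to 4, against 5058, 4575, 4311 and 4631 in control replicates. No miR-222 value reached the control range, and replicate 3 was again the lowest. The means were 11.75 ± 0.20 and 12.18 ± 0.10 log2 units in miR-222 and control cells (SD, n = 4 each), a fold change of -0.43 (SE 0.10, limma adjusted p = 0.0209). The call was lost without control replicate 1 (limma adjusted p = 0.0607), control replicate 2 (0.0502) or control replicate 4 (0.0501), with fold changes of -0.39 to -0.44.

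Ccl27, probe set 10876193, encodes a ligand of Ccr10 that is best known from skin. Its intensities of 418, 444, 352 and 432 with miR-222 were all below the 589, 581, 597 and 586 of the control arrays. The log2 means were 8.68 ± 0.15 in miR-222 cells and 9.20 ± 0.02 in control cells (SD, n = 4 each), and the fold change was -0.52 (SE 0.07, limma adjusted p = 0.00206). In the GRCr8 annotation Ccl27 shares 5 bases with its neighbour Il11ra1, the interleukin 11 receptor gene. Il11ra1 had 479, 506, 508 and 455 in miR-222 arrays, against 588, 574, 589 and 599 in control arrays, a fold change of -0.27 (limma adjusted p = 0.00556). Whether the Ccl27 probe set reads any RNA of Il11ra1 was not tested.

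Ccl20, probe set 10924780, encodes the ligand of Ccr6 on lymphocytes and dendritic cells. It had 218, 231, 185 and 231 in miR-222 cells, against 277, 260, 306 and 257 in control cells, with no overlap. The log2 means were 7.75 ± 0.15 in miR-222 cells and 8.10 ± 0.11 in control cells (SD, n = 4 each). The fold change was -0.35 (SE 0.09, limma adjusted p = 0.0283). It did not pass without miR-222 replicate 1 (limma adjusted p = 0.0611), control replicate 1 (0.0718) or control replicate 3 (0.0672).

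The 16 other CC ligands had fold changes from -0.18 for Ccl26 to 0.15 for Ccl25. Ccl7, like Ccl2 a ligand of Ccr2, had 265, 272, 215 and 265 in miR-222 cells, against 262, 226, 211 and 255 in control cells, and its fold change of 0.09 had an interval of -0.14 to 0.32. The macrophage inflammatory protein genes Ccl3 and Ccl4 gave 0.07 and 0.05, and Ccl5, a T-cell attractant, gave 0.03. The eosinophil attractants Ccl11 and Ccl24 each gave 0.08, and Ccl12 gave -0.13. Ccl17 gave 0.12 and Ccl22 0.11, both ligands of Ccr4. The lymph node ligands of Ccr7, Ccl19 and Ccl21, gave 0.01 and -0.06. Ccl28, which like Ccl27 binds Ccr10, gave -0.01, and Ccl6 and Ccl9 gave 0.01 and -0.01.

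Cx3cl1, probe set 10809269, encodes fractalkine, an adhesive chemokine anchored in the cell membrane. It rose, with 555, 496, 509 and 549 in miR-222 arrays, against 378, 392, 361 and 354 in control arrays. The lowest miR-222 value lay well above the highest control value, and unlike in Cxcl11, replicate 3 was inside the range of the other miR-222 arrays. The means were 9.04 ± 0.08 in miR-222 cells and 8.54 ± 0.07 in control cells (log2, SD, n = 4 each), a fold change of 0.51 (SE 0.06, limma adjusted p = 0.000669). Its receptor gene Cx3cr1 gave 0.14 (interval -0.07 to 0.34). Xcl1, a lymphocyte product, gave 0.18 and its receptor gene Xcr1 0.02.

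**Figure D2:**
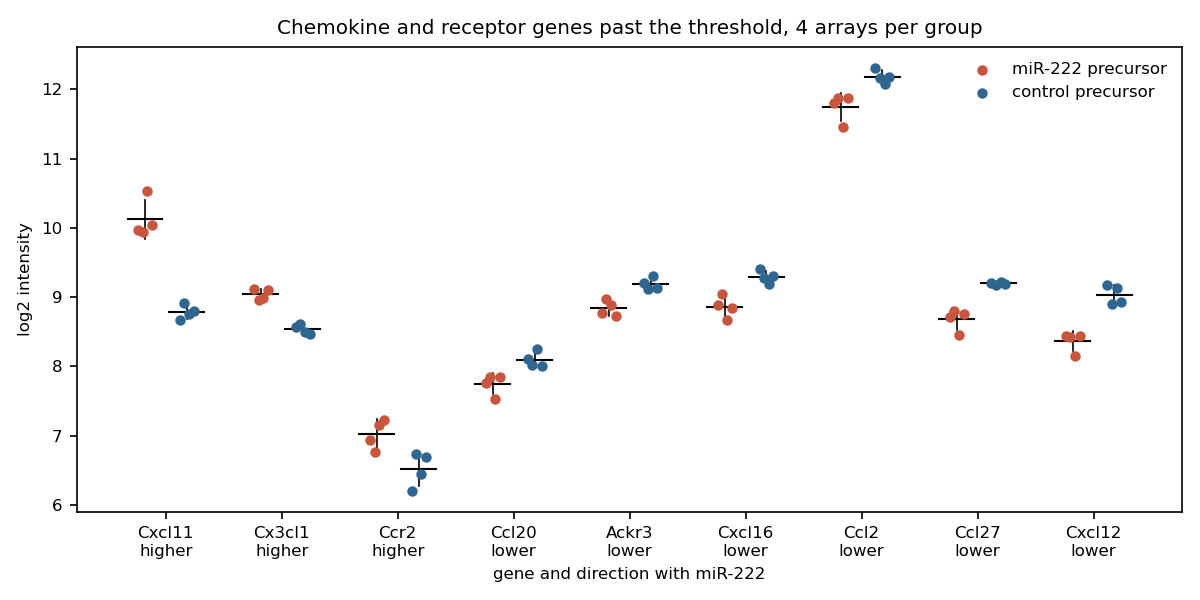
Log2 intensities of the 9 members past the threshold, with 4 arrays per group as points (miR-222 on the left, control on the right of each gene), horizontal bars for means and vertical bars for SD. The groups do not overlap in any of the 9, and the miR-222 array that stands apart in Cxcl11, Cxcl12 and Ccl2 is replicate 3.

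Of the 18 receptor genes 1 rose, 1 fell and 16 did not pass. The share that passed was 11.1%, against 20.0% of the 35 ligand genes and 24.7% of all genes. The difference between receptors and ligands was not tested. Ccr2, probe set 10914614, encodes the receptor through which monocytes follow Ccl2. It had 123, 109, 143 and 150 in miR-222 replicates, against 74.0, 107, 87.4 and 103 in control replicates. The groups were separate only narrowly, since miR-222 replicate 2 and control replicate 2 lay next to each other. The means were 7.02 ± 0.21 in miR-222 cells and 6.52 ± 0.25 in control cells (log2, SD, n = 4 each), a fold change of 0.50 (SE 0.14, limma adjusted p = 0.0439). Ccr2 was the only called member with a mean intensity below 202. Its call did not hold without any single array except miR-222 replicate 2 or control replicate 2 (limma adjusted p = 0.0542 to 0.111), nor with median centring (0.0545) or quantile normalization (0.0531).

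Of 28 measured leukocyte markers 2 rose (7.14%, below the 11.7% of all genes), 0 fell and 26 did not pass. The markers that rose were Cd74, the invariant chain of class II antigen presentation, at 0.78 and C1qa, a complement subunit that macrophages make, at 0.26. Without miR-222 replicate 4, control replicate 1 or control replicate 2 none of these markers rose past the threshold. Without miR-222 replicate 1 or 2 or control replicate 3 or 4, or with quantile normalization, median centring or a trend in the spread, 1 did. The summed intensity of the list was 4589 to 5421 in miR-222 arrays against 4017 to 4368 in control arrays, and no marker was listed at 0. The 26 markers that did not pass summed to 3083 to 3687 in miR-222 arrays and to 3096 to 3432 in control arrays. The test on these data set them apart, so part of the smaller gap comes from that choice. Most of the gap in the whole sum lay in Cd74. Its geometric mean was 1403 in miR-222 arrays against 816 in control arrays, and that of C1qa was 129 against 108. Cd74 had 1233, 1096, 2212 and 1298 in miR-222 arrays, against 793, 837, 819 and 814 in control arrays. Ptprc, the pan-leukocyte marker CD45, measured 42.9, 56.7, 49.8 and 55.6 in miR-222 arrays, against 66.8, 54.3, 61.9 and 58.9 in control arrays, and did not pass (limma adjusted p = 0.150). The part of leukocytes in the result for Ccr2 was not tested.

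Of the other receptors, the neutrophil receptor gene Cxcr1 came closest, with 110, 107, 112 and 90.1 in miR-222 cells, against 88.6, 74.0, 80.8 and 94.1 in control cells. Control replicate 4 exceeded miR-222 replicate 4, and the fold change of 0.31 (SE 0.10) did not pass (limma adjusted p = 0.0582). It passed without miR-222 replicate 4 (limma adjusted p = 0.0259) or control replicate 4 (0.0454), with a filter on dim probe sets (0.0446) and with p adjusted over genes alone (0.0361). Cxcr2, which shares ligands with it, gave -0.11, and without miR-222 replicate 2 it gave -0.21 and passed (limma adjusted p = 0.0323). The B-cell receptor gene Cxcr5 gave -0.08. Ccr1, Ccr3, Ccr4, Ccr6, Ccr7 and Ccr10 gave fold changes of 0.06, 0.17, 0.21, 0.12, 0.09 and 0.13, and Ccr9 gave -0.09. The intervals of the 44 members that did not pass ran from -0.52 at the lowest to 0.59 at the highest. A 2-fold change in intensity lay outside the interval in all 44 of them, and a 1.5-fold change in 43, all but Ccr4. Most of these members were dim, and no detection calls were used. The intervals therefore do not bound the change in transcript at dim probe sets.

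Setting known ligands beside their receptors, Ccl2 fell (-0.43) and its receptor gene Ccr2 rose (0.50), and Cxcl12 (-0.67) and Ackr3 (-0.35) fell together. Cxcl11 (1.34), which Ackr3 also takes up, went the other way, and Ccl7 (0.09), another ligand of Ccr2, did not pass. Of 17 alternatives in the processing, Ccl2 passed in 14 and the dim Ccr2 in 9. In the other pairs with a changed ligand the signalling receptor did not pass. This held for Cxcl11 with Cxcr3, Cxcl12 with Cxcr4, Cxcl16 with Cxcr6, Ccl20 with Ccr6 (0.12), Ccl27 with Ccr10 (0.13) and Cx3cl1 with Cx3cr1.

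Fibroblasts make Cxcl12 and Ccl2 among other chemokines. Of 11 measured fibroblast markers 4 fell (36.4%, against 13.0% of all genes), 0 rose and 7 did not pass, with a list median of -0.21. The summed intensity of the list was 10370 to 11710 in miR-222 arrays against 12856 to 14084 in control arrays, and no marker was listed at 0. The 7 that did not pass summed to 7145 to 8142 in miR-222 arrays and to 8018 to 8703 in control arrays, ranges that overlap. Those that fell were Lum (-0.89), a matrix proteoglycan gene, Thy1 (-0.64), Fn1 (-0.62), which encodes fibronectin, and Postn (-0.54), whereas Col1a1 gave -0.04 and Pdgfra -0.21 without passing. Among 11 endothelial markers 2 fell, the receptor gene Kdr (-1.51) and Eng (-0.27), and 9 did not pass, including Pecam1 at 0.04. The 2 are 18.2% of the list, against 13.0% of all genes that fell and 24.7% that passed in either direction. The summed intensity of the endothelial list was 2689 to 2860 in miR-222 arrays against 3375 to 3654 in control arrays. Without Kdr and Eng it was 1711 to 1852 in miR-222 arrays and 1698 to 1868 in control arrays, so the gap lay in those genes. They were left out because they passed, so part of the smaller gap comes from that choice. The part of either cell type in the chemokine results was not tested, and in RNA from whole cultures fewer cells of a type and less RNA per cell cannot be told apart.

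Many chemokine genes lie in clusters on the chromosome. In the GRCr8 annotation all 53 members were placed, and 21 pairs of members were direct neighbours with no other protein-coding gene between them. For each pair the difference of their log2 values was compared between the groups in an exact 2-sided permutation test over the 8 arrays, in which 0.0286 is the smallest p possible. In 5 pairs the test gave that value (exact adjusted p = 0.120 over the 21 pairs, which does not pass). At that smallest p a pair can pass the adjustment only together with many others, so the test cannot decide for a single pair. Cxcl11 exceeded Cxcl10 in fold change by 1.45, Ccl7 exceeded Ccl2 by 0.52, Ccl19 exceeded Ccl27 by 0.53, Cx3cl1 exceeded Ccl17 by 0.39 and Cxcr1 exceeded Cxcr2 by 0.42. For Cx3cl1 over its neighbour on the other side, Ccl22, the difference was 0.40 (exact permutation p = 0.0571, adjusted p = 0.200). The pairs were chosen with the values known.

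**Figure D3:**
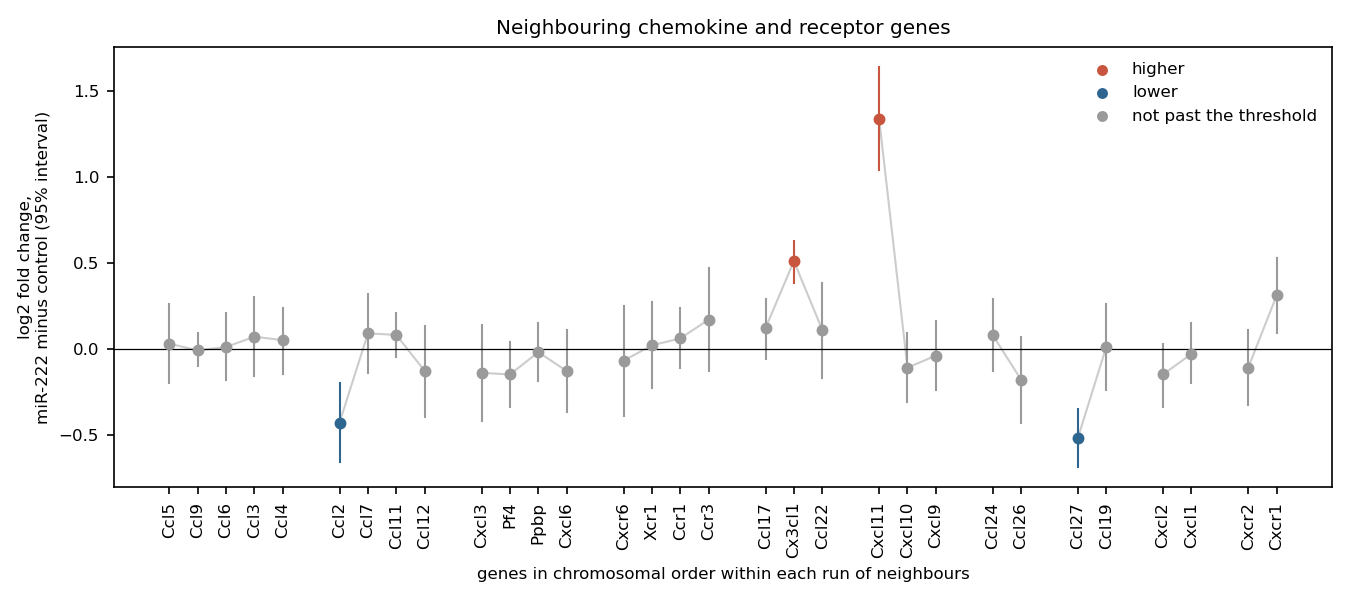
Log2 fold changes (miR-222 minus control, y axis, bars for 95% intervals) of members that are direct neighbours, in chromosomal order within each run and with gaps between runs. No difference between neighbours passed the exact test after adjustment, and with these few arrays no single pair could have passed alone. In their run Cxcl11 lies at 1.34, Cxcl10 at -0.11 and Cxcl9 at -0.04, while the run of Ccl5, Ccl9, Ccl6, Ccl3 and Ccl4 stays between -0.01 and 0.07.

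The start regions of the 3 genes in a row that encode ligands of Cxcr3 are printed because Cxcl11 passed the test and Cxcl10 and Cxcl9 did not. Each is the RefSeq window of 250 bases before to 50 bases after the start, build GRCr8, plus strand. Capitals mark matches on either strand to 4 motifs. They were a form of the NF-kappaB site (GGGA, any 2 bases, TTCC), the core of the interferon-stimulated response element or ISRE (GAAA, any 2 bases, GAAA), the gamma-activated site or GAS (TTCNNNGAA) and the AP-1 site (TGAGTCA).
Cxcl11, chr14:15973478-15973777: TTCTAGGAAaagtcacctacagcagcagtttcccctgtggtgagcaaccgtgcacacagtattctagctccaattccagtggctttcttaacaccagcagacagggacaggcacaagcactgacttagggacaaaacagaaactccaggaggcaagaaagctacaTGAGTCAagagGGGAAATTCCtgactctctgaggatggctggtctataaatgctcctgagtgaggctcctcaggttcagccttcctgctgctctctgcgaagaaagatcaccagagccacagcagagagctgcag
Cxcl10, chr14:15988816-15989115: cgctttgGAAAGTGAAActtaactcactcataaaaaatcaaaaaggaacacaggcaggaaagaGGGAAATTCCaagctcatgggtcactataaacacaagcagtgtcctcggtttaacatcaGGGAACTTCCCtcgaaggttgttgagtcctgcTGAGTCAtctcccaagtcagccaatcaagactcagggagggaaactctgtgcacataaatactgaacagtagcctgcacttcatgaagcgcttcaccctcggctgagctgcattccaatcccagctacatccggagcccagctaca
Cxcl9, chr14:16006916-16007215: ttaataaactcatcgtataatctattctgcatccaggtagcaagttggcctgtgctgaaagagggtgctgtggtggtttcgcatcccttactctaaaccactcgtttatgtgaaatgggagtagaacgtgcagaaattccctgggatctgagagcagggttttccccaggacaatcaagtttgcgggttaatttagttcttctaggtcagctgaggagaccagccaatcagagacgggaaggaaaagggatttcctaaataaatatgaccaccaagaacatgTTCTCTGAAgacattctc

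The Cxcl11 window held an NF-kappaB match from -74 to -65, an AP-1 match from -85 to -79 and a GAS match from -250 to -242, counted from the start. The Cxcl10 window held NF-kappaB matches from -187 to -178 and, as 2 overlapping matches on opposite strands, from -128 to -118. It also had an ISRE match from -243 to -234 and an AP-1 match from -96 to -90. In the Cxcl9 window a GAS match lay after the start, from 33 to 41. Matches other than the overlapping pair did not overlap each other. Of 33469 windows of this length in the RefSeq table, 1.3% held the NF-kappaB form, 3.92% the ISRE core, 8.87% the GAS and 4.63% the AP-1 site. Windows were found for 41 members, of which 6, 2, 6 and 5 held these motifs in the same order. Of the 6 with the NF-kappaB form Cxcl11 passed limma's test, and Ccl7, Ccr3, Cxcl1, Cxcl6 and Cxcl10 did not. The motifs were settled after the values were seen and after these windows had been read with several other patterns, and the NF-kappaB form was widened after reading Cxcl11 and Cxcl10, so its presence there is partly a product of that choice. A match in letters is a description and not a bound site.

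Of 33 measured genes that chemokine receptors signal through, 7 rose, 4 fell and 22 did not pass, with a list median of 0.07. The share that passed was 33.3%, against 24.7% of all genes. The number that rose was 3 without any single control array and 4 without miR-222 replicate 1 or 4 or with median centring. The alpha subunits of the inhibitory G proteins, to which all signalling chemokine receptors couple, moved apart. Gnai1 had 1184, 1117, 1197 and 1167 in miR-222 arrays, against 649, 592, 659 and 527 in control arrays, a fold change of 0.95 (SE 0.07, limma adjusted p = 0.000157). Gnai3 had 925, 793, 843 and 848 in miR-222 arrays, against 1679, 1639, 1663 and 1674 in control arrays, a fold change of -0.97 (SE 0.05, limma adjusted p = 4.41e-05). Gnai2 had 3842, 3674, 3594 and 3780 in miR-222 arrays, against 4984, 5098, 4963 and 4787 in control arrays, a fold change of -0.41 (SE 0.04, limma adjusted p = 0.000413). In none of these 3 did the groups overlap. Arrb1, a beta-arrestin that ends receptor signalling, rose by 0.26, and Elmo1, part of a Rac activator in cell migration, rose by 0.43. Ptk2b, a kinase of focal adhesions, fell by 0.64 on the log2 scale.

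Among 32 measured genes that induce chemokine genes 9 rose, 2 fell and 21 did not pass (list median 0.04). The share that passed was 34.4%, against 24.7% of all genes. The adaptor gene Myd88, which links Toll-like and interleukin 1 receptors to NF-kappaB, had 560, 500, 591 and 576 in miR-222 arrays, against 357, 347, 366 and 301 in control arrays. Its fold change was 0.70 (SE 0.08, limma adjusted p = 0.000699). The type I interferon receptor gene Ifnar1 rose by 0.35, its signal transducer Stat2 by 0.36, the tumour necrosis factor receptor gene Tnfrsf1a by 0.29 and the hypoxia factor gene Hif1a by 0.34. Irf3, which starts the interferon response to viral RNA, fell by 0.28 on the log2 scale. The interferon beta gene Ifnb1 had 147, 140, 124 and 116 in miR-222 arrays, against 149, 163, 146 and 162 in control arrays, and did not pass. The number of inducers that rose was 6 without control replicate 2 or 4 and with median centring.

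Cxcl11 being an interferon-induced gene, other genes of that response were set beside it. Of 29 measured genes 6 rose, 0 fell and 23 did not pass, with a list median of 0.10. By limma 11 of the 29 had an unadjusted p under 0.05 in either direction, against 5412 of all 14506 genes. The 6 are 20.7% of the list, against 11.7% of all genes that rose and 24.7% that passed in either direction. Those that rose were Trim25, a ubiquitin ligase of RNA sensing, at 0.74 (limma adjusted p = 0.000240), Gbp5 at 0.48, Igtp at 0.45, the immunoproteasome gene Psmb9 at 0.44, Cmpk2 at 0.43 and Gbp2 at 0.37. The 23 that did not pass ran from -0.30 for Ifi27 to 0.68 for Usp18. Among these, Isg15 gave -0.03, Ifit1 -0.16 and Mx1 -0.19, whereas Mx2 gave 0.40, Ifi44 0.23 and Rsad2 0.21. Trim25 had 1091, 1187, 1304 and 1234 in miR-222 arrays, against 740, 718, 746 and 673 in control arrays. With median centring, a mean over probe sets, a trend in the spread or p adjusted over genes alone, and without miR-222 replicate 4, 1 gene of this response fell.

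**Figure D4:**
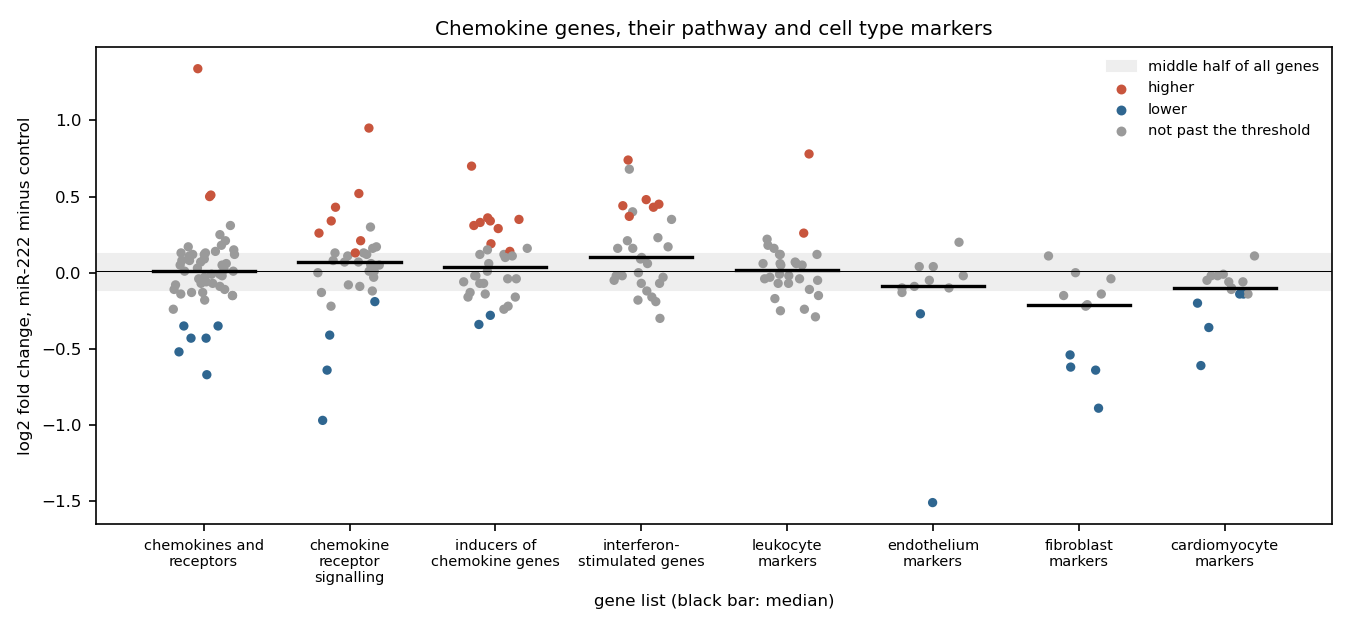
Log2 fold changes (miR-222 minus control, y axis) of the chemokine and receptor genes, of 3 lists of pathway genes and of 4 lists of cell type markers, 1 point a gene, with black bars for list medians and a grey band between the quartiles of all genes. The median of the chemokine family lies at 0.01, at the median of all genes, and that of the fibroblast markers at -0.21.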

How the data were processed

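RNA was hybridised as labelled cRNA to 8 Affymetrix arrays. The intensity of each probe set is the authors' deposited value on a linear scale. The authors' background correction, summary and normalization are not given in the sources used here. The series text names another rat array, but the probe set identifiers pair with the annotation of the Rat Gene 1.0 ST array, which was used for symbols. Of 29170 probe sets 15310 had 1 gene symbol, 323 had several and 13537 had none. No detection calls were used, so whether dim probe sets lay above background was not tested. The number of arrays limits the precision.

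Values were tested as log2 intensity, without filter or pseudocount, in limma 3.58.1 (R 4.3.3) with lmFit and eBayes over all probe sets, and p-values were adjusted by the Benjamini-Hochberg method with a threshold of 0.05. A gene with several probe sets was represented by the one with the highest mean log2 intensity. That form of the mean was settled after both had been computed, and it does not bear on the chemokine genes, each of which has 1 probe set. Differences between neighbouring genes were compared by an exact permutation test. The fit was tested on simulated data.

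Array values, means, SD and fold changes are given for every member past the threshold and for the 8 of highest mean intensity, and up to 6 genes of a pathway list are named by smallest p. Ifnb1, Il11ra1, Ptprc, Pecam1, Col1a1 and Pdgfra were named after their values were seen. So were the interferon-induced genes named without passing, and the receptor and ligand genes set beside a called gene. The members and lists were chosen with earlier results of these data known. Alternatives were quantile normalization, median centring, a pseudocount of 16, a filter at a mean log2 of 6, a mean over probe sets, a trend or robust variance, array weights, adjustment over genes alone, and leaving out each array. Sums of marker lists without the members past the threshold were added after seeing the data. Leaving out members that passed in these data narrows the gap between groups in part by that choice itself.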

Additional observations from a re-analysis of the deposited data

Results flagged for a closer look

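In 6 of 106 groups of 4 arrays, 1 array of a member lay far from the other 3, by Dixon's criterion, which chance meets in about 1 of 20 groups. In 5 of the 6 this was miR-222 replicate 3. It had a log2 intensity of 10.54 for Cxcl11, where the other 3 arrays had 9.94 to 10.04. For Cxcl12 it had 8.15 (others 8.43 to 8.44), for Ccl2 11.45 (others 11.80 to 11.87), for Ccl7 7.75 (others 8.05 to 8.09) and for Ppbp 7.56 (others 7.37 to 7.39). The remaining array was miR-222 replicate 2 for Cxcr3, with 7.62 (others 7.35 to 7.40). Among the 9 members past the threshold, replicate 3 lay farthest from the control arrays in 6, as the lowest in 5 of the 6 lower genes and as the highest in 1 of the 3 higher genes. Without it the fold changes were 1.20 for Cxcl11, -0.60 for Cxcl12 and -0.33 for Ccl2, and all 3 still passed in limma.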

How the results depend on the processing

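Over 17 alternatives the number of family members that rose was 2 to 4 and the number that fell was 4 to 7. Cxcl11, Cx3cl1, Cxcl12, Ccl27, Cxcl16 and Ackr3 passed in all 17, Ccl2 and Ccl20 in 14 each and Ccr2 in 9. No called member changed direction. Of members that did not pass, 3 passed under some alternative, namely Cxcr1, Cxcr2 and Cxcl14 (0.33, limma adjusted p = 0.0403 without miR-222 replicate 4). The median of all genes was -0.01 with median centring and 0.01 otherwise. Of 354 recomputed differences between neighbouring genes 0 moved by more than 1 SD. The 18 pathway genes named for the smallest p, 6 from each list, passed under all 17 alternatives. No paired analysis was possible because the labels carry no replicate numbers, and those used here follow the order of deposition. The scrambled RNA may act through its own sequence, and its effects and those of miR-222 cannot be told apart. Dim probe sets limit what is seen for the receptors and for many of the ligands.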
